A study of Sus scrofa with 74 samples.

Results

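The genes described here mark fat cells or carry out fat storage: ADIPOQ, FABP4, PLIN1, LEP, CIDEC, LPL, SCD, FASN, DGAT2 and PPARG. They were followed in a back muscle, M. longissimus dorsi, sampled from 74 pigs. The members were taken by name, as the probe sets that the array's annotation assigns to a single gene of these 10. A probe set is the group of short oligonucleotides that reads 1 transcript on the array. Of the 10 genes, 8 had such a probe set, 15 probe sets in all, out of 6765 genes with a probe set of a single symbol. No probe set carried PLIN1 or CIDEC as its only symbol, and these genes were not analysed here. The 10 names were not picked from a contrast of this table, but they were chosen with earlier results of these data known.

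The pigs, of the F2 generation after Duroc and Pietrain were crossed, were sampled at slaughter. They form a single group with 1 Affymetrix Porcine Genome Array per animal and no control group. By the study's methods they came from full-sib families, so some are siblings, and the p-values below treat them as independent. Their drip loss, sex, family, age, slaughter date and genotype are not in the labels, and no relation with these was analysed here. The label numbers fall into 2 blocks of unstated meaning, DRIP 1-33 with 24 animals and DRIP 60-114 with 50, and every correlation and fit is given within each block or with the block as a covariate, unless an alternative leaves it out.

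Adipocytes lie between the fibres and fibre bundles of a muscle, where they form the intramuscular fat seen as marbling. They take up fatty acids from circulating lipoproteins and make new ones from glucose, join them to glycerol as triglyceride, and secrete adipokines into the blood. Muscle fibres share some of these genes at lower or higher levels, so in a piece of whole muscle a transcript can come from either cell. In such bulk RNA, fewer cells of a type and less RNA per cell cannot be told apart.

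Some facts of the whole table bear on every value. The arrays' trimmed mean before scaling was 50.3 to 123 in DRIP 1-33 and 84.7 to 183 in DRIP 60-114. Each array was therefore scaled to a trimmed mean of 500 and taken to log2. This is the scale of all levels below, on which 1 unit is a doubling. After this scaling the blocks still did not overlap on the first principal component. It ran from -49.6 to -24.7 in DRIP 1-33 and from 4.42 to 34.1 in DRIP 60-114. For this reason no r is given over both blocks together. The tissue label was checked against muscle fibre markers: the 7 fast fibre genes with a probe set summed to 189500 to 532400 scaled units in DRIP 1-33 and 255100 to 465100 in DRIP 60-114, and the 8 slow fibre genes to 165800 to 308800 in DRIP 1-33 and 77670 to 360000 in DRIP 60-114. Levels of different probe sets depend on their own oligonucleotides and are not set against each other.

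The adipokines come first. ADIPOQ encodes adiponectin, a hormone made almost only by adipocytes. Its lowest, median and highest levels were 7.32, 9.09 and 12.19 in DRIP 1-33 and 6.89, 9.41 and 12.35 in DRIP 60-114. The blocks overlapped over nearly their whole range, and the highest of the 74 animals had 44.0 times the level of the lowest. Its SD was 1.19 log2 units over the 74 animals. With block means removed, its SD lay at the 99.5th percentile of probe sets of like level, so few transcripts of its brightness varied as much between these pigs.

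LEP encodes leptin, the adipokine that signals the size of fat stores. Of its 2 probe sets that are not array controls, the one of higher mean, Ssc.265.1.S2_at, had a lowest, median and highest level of 2.58, 6.36 and 7.81 in DRIP 1-33 and 4.53, 7.0 and 8.0 in DRIP 60-114. It was dim, and neither it nor Ssc.265.1.S3_at was in the upper part of the table by median level that an alternative kept. The 2 leptin probe sets named as array controls could not be kept there, because controls were left out whatever their level. The LEP probe sets did not follow one another well. Ssc.265.1.S2_at and Ssc.265.1.S3_at had an r of 0.449 in DRIP 1-33 and 0.279 in DRIP 60-114. The pairs that took in 1 or both of the 2 leptin probe sets named as array controls lay between -0.116 and 0.192. LEP is thus a member whose probe sets differed, as did those of FASN through its dimmest probe set, described below. With Ssc.265.1.S3_at in place of Ssc.265.1.S2_at, r with the 7 other genes was 0.561 to 0.806 in DRIP 1-33 and 0.445 to 0.611 in DRIP 60-114, while neither control probe set gave a pair under an adjusted p of 0.05 in the permutation test.

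Fatty acid uptake and binding are represented by 2 genes. FABP4, the fatty acid binding protein of adipocytes, had lowest, median and highest levels of 9.65, 11.64 and 13.99 in DRIP 1-33 and 9.83, 12.48 and 14.26 in DRIP 60-114. LPL, lipoprotein lipase, frees fatty acids from circulating triglyceride at the capillary wall of both fat and muscle. Its brighter probe set, Ssc.16335.1.S2_at, had 11.31, 12.29 and 14.40 in DRIP 1-33 and 10.75, 12.46 and 13.49 in DRIP 60-114. The fold between the highest and the lowest animal was 24.4 for FABP4 and 12.6 for LPL. LPL thus varied least of the 8 genes in absolute terms, with an SD of 0.61, although with block means removed its SD still lay at the 95.8th percentile of probe sets of like level.

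Fatty acid synthesis is represented by SCD and FASN. SCD, stearoyl-CoA desaturase, puts the double bond into stearic acid to make oleic acid. Its lowest, median and highest levels were 9.11, 11.54 and 14.78 in DRIP 1-33 and 8.16, 11.57 and 14.06 in DRIP 60-114. SCD had the largest SD of the 8 genes' main probe sets, 1.71, and a 98.3-fold range, and with block means removed its SD lay at the 99.9th percentile of probe sets of like level. Its interquartile range alone spanned 8.56-fold. Its widest gap away from the ends lay between 10.73 and 11.12, with 33 animals below it and 41 above, and at 0.39 this gap was well under 1 SD.

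FASN, fatty acid synthase, makes palmitic acid from acetyl and malonyl units. The brightest of its 4 probe sets, Ssc.18175.1.A1_at, had 7.92, 10.61 and 14.02 in DRIP 1-33 and 7.80, 10.61 and 13.02 in DRIP 60-114, a 74.6-fold range. Of the 3 others, Ssc.25076.1.A1_at followed it with an r of 0.770 in DRIP 1-33 and 0.829 in DRIP 60-114, and Ssc.25076.2.S1_at with 0.739 in DRIP 1-33 and 0.665 in DRIP 60-114. The dimmest, Ssc.16368.1.S1_at, followed with an r of 0.398 in DRIP 1-33 and -0.00909 in DRIP 60-114, so it did not report on FASN as the other 3 did.

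Esterification and its control are represented by 1 gene each. DGAT2, a diacylglycerol acyltransferase, adds the last fatty acid to triglyceride. Its lowest, median and highest levels were 6.59, 8.98 and 12.78 in DRIP 1-33 and 6.87, 9.12 and 11.46 in DRIP 60-114. PPARG, the nuclear receptor that drives adipocyte differentiation, had 2.91, 7.60 and 10.09 in DRIP 1-33 and 2.31, 7.44 and 10.54 in DRIP 60-114. PPARG had a long lower tail, with animals DRIP 4, 60 and 113 under 3 log2 units (named after their values were seen). Its 301-fold range therefore rests on a few dim values, whereas its interquartile range spanned 2.60-fold.

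**Figure D1:**
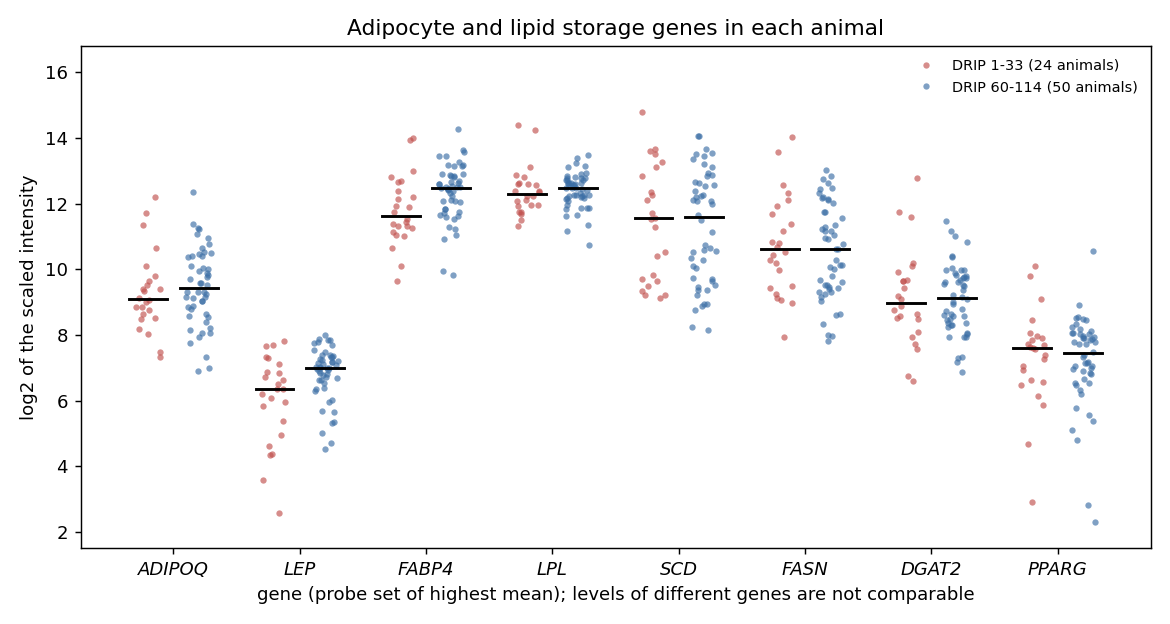
Level of each gene in each of the 74 animals, as log2 of the scaled intensity on the vertical axis, for the probe set of highest mean of each of the 8 genes. Points are animals, DRIP 1-33 left of DRIP 60-114, and black bars are block medians. By SD over the 74 animals, SCD (1.71) and FASN (1.46) are spread most widely, PPARG (1.43) is close to FASN, and LPL is spread least. PPARG has the widest range, through its long lower tail, and the blocks overlap in every gene.

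The same animals stood at the ends of several genes, by ranks over all 74 animals with block differences left in. The animal of highest ADIPOQ, DRIP 106, was also the highest of 74 for FABP4 (14.26), LEP (8.0) and PPARG (10.54), but only the 11th for SCD (13.37). DRIP 20, the 2nd for ADIPOQ, was the highest for SCD (14.78), FASN (14.02) and DGAT2 (12.78). DRIP 11, the 3rd for ADIPOQ, was the highest for LPL (14.40). These 3 animals were thus high in nearly the whole group of genes.

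At the low end, DRIP 112 had the lowest ADIPOQ (6.89) and the lowest LPL (10.75), and was 73rd for FABP4, yet stood 50th for SCD (10.29). DRIP 33 was 71st for ADIPOQ and the lowest for FABP4 (9.65) and DGAT2 (6.59). Of the 10 animals highest for ADIPOQ, 7 were also among the 10 highest for FABP4, 6 each for LEP, LPL, FASN, DGAT2 and PPARG, and 5 for SCD. Of the 10 lowest for ADIPOQ, 6 were among the 10 lowest for FABP4, FASN, DGAT2 and PPARG, 5 for SCD and 4 for LEP and LPL.

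A few animals departed from this order, and were named after their values were seen as those whose ADIPOQ and SCD ranks lay farthest apart. DRIP 104 was 13th for ADIPOQ (10.51), 9th for FABP4 (13.18) and 6th for LPL (13.13), but 73rd for SCD (8.23) and 57th for FASN (9.42). DRIP 114 was 8th for ADIPOQ (11.07) and 4th for FABP4 (13.64), but 62nd for SCD (9.37) and 63rd for FASN (9.16). In the other direction, DRIP 15 was 50th for ADIPOQ (8.85) and 8th for SCD (13.52), and DRIP 1 was 45th for ADIPOQ (9.05) and 6th for SCD (13.60). In each of these 4 animals FASN lay on the side of SCD and not of ADIPOQ.

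**Figure D2:**
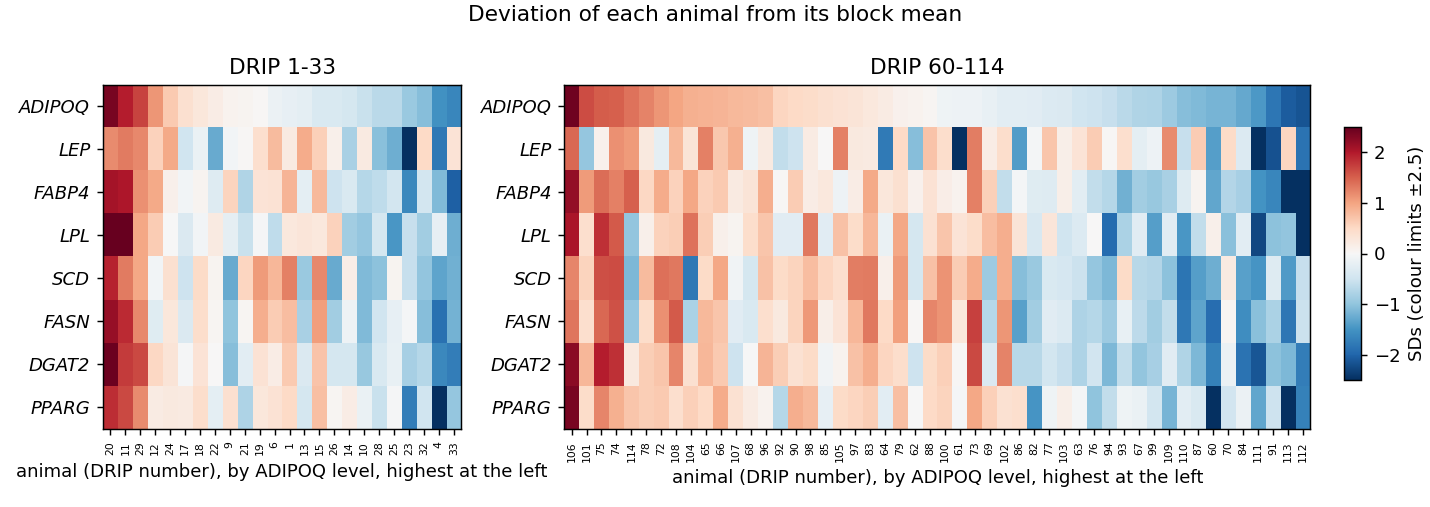
Deviation of each animal from its block mean in SDs of the block (colour, red above and blue below the mean) for the 8 genes (rows), DRIP 1-33 at the left and DRIP 60-114 at the right. Animals (columns) are ordered by ADIPOQ. Animals at either end keep their colour over most genes, and DRIP 104 and 114 are red for ADIPOQ and FABP4 and blue for SCD and FASN.

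Across animals, all pairs of the 8 genes' main probe sets had a positive r within both blocks. Each of the 28 pairs was tested in each block with 100000 permutations of the animals (two-sided), and p was adjusted over the 56 tests after Benjamini-Hochberg. In DRIP 1-33, r ran between 0.449 and 0.949 with a median of 0.769, and 28 of 28 pairs were under an adjusted p of 0.05. In DRIP 60-114, r ran between 0.269 and 0.943 with a median of 0.635, and 27 of 28 pairs were under it. LEP and SCD in DRIP 60-114 was the exception (r = 0.269, adjusted p = 0.059, permutation test). Over the 21 pairs without LEP, r was 0.549 or higher in DRIP 1-33 and 0.530 or higher in DRIP 60-114. By rank, Spearman's rho passed the same threshold in 28 of 28 pairs in each block.

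ADIPOQ was close to FABP4 and to DGAT2, with the higher r for DGAT2 in DRIP 1-33 and for FABP4 in DRIP 60-114, a difference that was not tested. With FABP4 the r was 0.863 in DRIP 1-33 (rho = 0.797) and 0.897 in DRIP 60-114 (rho = 0.885), and the permutation p of both r was 1e-05, the smallest possible with 100000 permutations. When the 2 animals with the most extreme ADIPOQ relative to its median were left out, r was 0.766 in DRIP 1-33 and 0.872 in DRIP 60-114. For ADIPOQ and DGAT2, r was 0.893 in DRIP 1-33 (rho = 0.766) and 0.814 in DRIP 60-114 (rho = 0.812), again with a permutation p of 1e-05 in both. ADIPOQ and PPARG gave 0.796 in DRIP 1-33 (rho = 0.735) and 0.753 in DRIP 60-114 (rho = 0.763). Adipokine, binding protein, esterification enzyme and transcription factor thus followed one another in both blocks.

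SCD and FASN formed the tightest pair of all. Their r was 0.949 in DRIP 1-33 (rho = 0.962) and 0.943 in DRIP 60-114 (rho = 0.950), with a permutation p of 1e-05 in both, and 0.941 and 0.949 in DRIP 1-33 and DRIP 60-114 without the 2 animals farthest from the SCD median. DGAT2 was close to both enzymes, with an r of 0.868 to SCD and 0.925 to FASN in DRIP 1-33, and of 0.807 to SCD and 0.869 to FASN in DRIP 60-114. ADIPOQ and SCD were less close. Their r was 0.671 in DRIP 1-33 (rho = 0.608, permutation p = 0.0003) and 0.608 in DRIP 60-114 (rho = 0.629, permutation p = 2e-05). Without the 2 farthest animals r was 0.522 in DRIP 1-33 and 0.601 in DRIP 60-114.

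LPL was tied to ADIPOQ with an r of 0.824 in DRIP 1-33 (rho = 0.697) and 0.708 in DRIP 60-114 (rho = 0.662). Without the 2 animals farthest from the ADIPOQ median, r was 0.656 in DRIP 1-33 and 0.627 in DRIP 60-114. In DRIP 1-33 these were DRIP 11 and 20, which were also the 2 animals farthest from the LPL median. The relations of LPL to SCD, FASN and PPARG in DRIP 1-33 rested in large part on them. The r of LPL with SCD there was 0.549 over 24 animals and 0.299 without them (permutation p = 0.17). With FASN it was 0.673 and, without them, 0.378 (permutation p = 0.081), and with PPARG 0.610 and, without them, 0.354 (permutation p = 0.10). In DRIP 60-114 the r of LPL without its 2 farthest animals stayed at 0.591 with SCD, 0.654 with FASN and 0.572 with PPARG. For every pair, the 2 animals left out were those farthest from the median of 1 gene, the one named first in the opening list. With these left out, 24 of 28 pairs in DRIP 1-33 and 27 of 28 in DRIP 60-114 were under an adjusted p of 0.05 (permutation test). LEP and SCD was the 4th pair that was not in DRIP 1-33. PPARG comes last in that list, so no animal was left out for its PPARG level, and pairs were not tested without the extremes of their second gene.

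**Figure D3:**
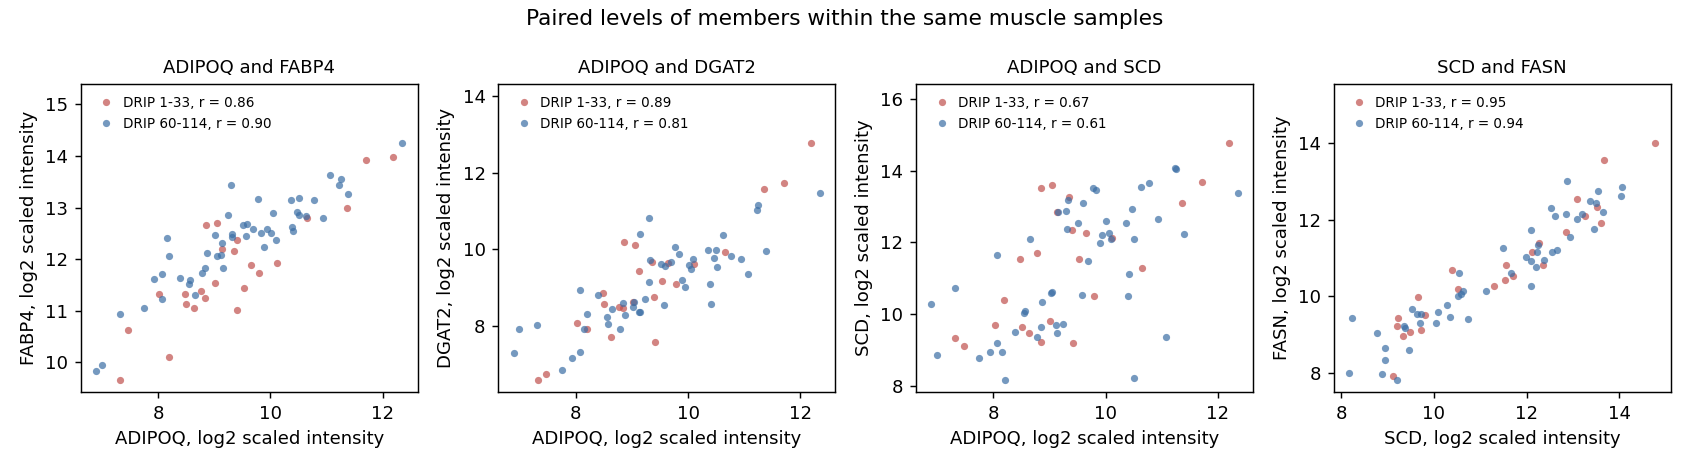
Levels of pairs of genes in the same animal, both axes in log2 of the scaled intensity, with 1 point per animal of DRIP 1-33 or DRIP 60-114. ADIPOQ with FABP4 and SCD with FASN form narrow clouds in both blocks (r of 0.863 or higher), while ADIPOQ with SCD scatters more (0.671 in DRIP 1-33 and 0.608 in DRIP 60-114).

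**Figure D4:**
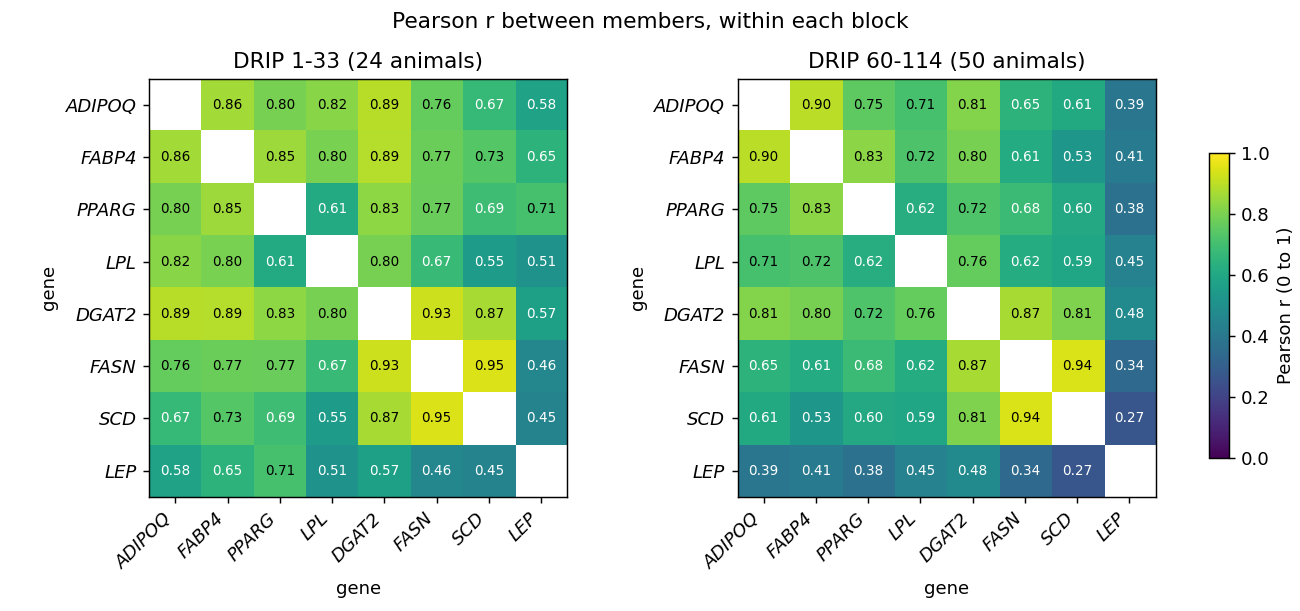
Pearson r (colour and printed value) for each pair of the 8 genes, within DRIP 1-33 (24 animals) at the left and DRIP 60-114 (50 animals) at the right. SCD, FASN and DGAT2 form a bright square (r of 0.807 or higher in both blocks). ADIPOQ, FABP4, PPARG and DGAT2 also had high r with one another (0.723 or higher). LPL lies between PPARG and DGAT2, with r of 0.708 or higher to ADIPOQ, FABP4 and DGAT2 in both blocks. LEP is the row of lowest values in both blocks.

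Within DRIP 1-33 the first principal component of the 8 standardized genes held 77% of their variance, and within DRIP 60-114 it held 69.6%. All 8 genes had weights of the same sign on it, the smallest that of LEP, 0.276 in DRIP 1-33 and 0.220 in DRIP 60-114. The second component held 9.34% in DRIP 1-33 and 11.1% in DRIP 60-114. It set SCD (0.470 in DRIP 1-33 and 0.511 in DRIP 60-114) and FASN (0.411 and 0.418 in those blocks) against LEP (-0.714 and -0.675). ADIPOQ, FABP4, LPL and PPARG had small weights of the sign of LEP in both blocks, and DGAT2 a small weight of the sign of SCD.

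To place the members among all transcripts, each of the 23998 other probe sets that are not controls was fitted on ADIPOQ, with the block as a covariate, by limma (called at a Benjamini-Hochberg adjusted p under 0.05). In this fit 943 probe sets, 3.93% of those tested, were called with a positive slope and 420, 1.75%, with a negative one. Of the 12 other member probe sets that are not array controls, 11 were called, all positive, with partial r (r with the block means removed) of 0.46 to 0.88. The exception was the dim FASN probe set Ssc.16368.1.S1_at (partial r = 0.22, limma adjusted p = 0.30). The median partial r was 0.633 over the 12, against 0.0182 over all probe sets tested. The split of calls depended on the scaling: with values as deposited it was 3929 positive and 44 negative, and with quantile normalization 749 positive and 547 negative. The 11 member calls were positive under both.

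For each doubling of ADIPOQ, FABP4 was higher by 0.69 ± 0.042 log2 units (SE, 74 animals, limma adjusted p = 1.7e-22). PPARG was higher by 0.93 ± 0.089 per doubling, SCD by 0.90 ± 0.13, DGAT2 by 0.84 ± 0.063 and the brightest FASN probe set by 0.84 ± 0.10. The slopes of the 2 LPL probe sets were shallower, 0.38 ± 0.039 and 0.27 ± 0.038, and those of the 2 LEP probe sets 0.40 ± 0.089 and 0.76 ± 0.14. The other FASN probe sets had slopes of 0.46 ± 0.075, 0.39 ± 0.084 and 0.21 ± 0.11, the last not called, so the slope of a gene depended on the probe set that read it.

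The same fit was made with each other gene as predictor, by limma in all 74 animals. FABP4 called 4% of probe sets positive and 11 of 12 member probe sets of other genes. PPARG called 5.64% and 11 of 12, DGAT2 4.04% and 11 of 12, and LPL 3.2% and 10 of 11. FASN called 3.05% and 9 of 9, SCD 1.4% and 9 of 12, and LEP 0.771% and 8 of 11. No member probe set was called negative in any of these fits. SCD and LEP had fewer positive calls over the array than the other 6 genes.

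Beyond the members, the 10 single-symbol probe sets with the highest partial r with ADIPOQ included FABP4 (0.88) and DGAT2 (0.84) themselves. The others were SFRP1, a secreted Wnt modulator (0.86), RETSAT, the retinol saturase (0.86), MGST1, a microsomal glutathione transferase (0.85), ALDOC, an aldolase (0.84), SGK2, a kinase (0.83), ARL6IP1 (0.80), PTGR1, a prostaglandin reductase (0.79), and FAM149A (0.77). RETSAT and SFRP1 recurred at the top of other fits. RETSAT had a partial r of 0.91 with FABP4 and 0.85 with PPARG, and SFRP1 of 0.90 with FABP4 and 0.83 with PPARG. ALDOC was the nearest gene to LPL (0.82) and to DGAT2 (0.91). MAL2 (0.67) and ORMDL3 (0.61), a regulator of sphingolipid synthesis, were nearest to LEP. All were called by limma.

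At the other end, the 5 lowest with ADIPOQ were NDUFA4 (-0.56) and NDUFB4 (-0.54), proteins of the mitochondrial respiratory chain, KLC1, a kinesin light chain (-0.55), LOC100156967 (-0.53) and SH2B1, an adaptor protein (-0.53). The negative slopes were shallow, at most 0.13 log2 units in size per doubling of ADIPOQ. With values as deposited none of the 5 was called, with limma adjusted p of 0.118 to 0.668, and none was called in DRIP 1-33 alone, with 0.0557 to 0.563.

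SCD had neighbours of its own. Nearest were FASN (partial r = 0.94), 3 probe sets of ELOVL6, the elongase that lengthens palmitic to stearic acid (0.90, 0.85 and 0.85), and DGAT2 (0.82). A 4th ELOVL6 probe set followed with 0.76, and MGST1 with 0.72. The FASN fit had SCD (0.94), ELOVL6 (0.91) and DGAT2 (0.88) at its top. The lowest with SCD, named after their values were seen, were ABHD4, a phospholipid hydrolase (-0.61 and -0.56 for its 2 probe sets), ETFDH, the electron transfer flavoprotein dehydrogenase (-0.61), UCP3, a mitochondrial carrier of muscle (-0.60), and FNTB, a farnesyltransferase subunit (-0.57). Over the array, SCD called 0.646% of probe sets negative. With values as deposited the split was 357 positive and 50 negative, against 336 and 155 as scaled. In DRIP 1-33 alone, with fewer animals, only 2 probe sets of the array were called negative with SCD. Most of these lowest probe sets were thus not called there.

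ADIPOQ and SCD were then held against each other in 1 model, a step added after the pairwise correlations had been seen. In the SCD fit with ADIPOQ as a covariate, 0.358% of probe sets were called positive and 0.171% negative by limma (86 and 41 probe sets, against 26 and 36 with values as deposited). Of the 11 member probe sets of other genes, 4 were called: FASN Ssc.18175.1.A1_at (partial r = 0.91), DGAT2 (0.69), FASN Ssc.25076.1.A1_at (0.65) and FASN Ssc.25076.2.S1_at (0.53). FABP4 had a partial r of 0.13 with SCD once ADIPOQ was in the model (95% interval -0.10 to 0.35, adjusted p = 0.80), LPL Ssc.16335.1.S2_at 0.19 (-0.05 to 0.40) and PPARG 0.30 (0.07 to 0.50, adjusted p = 0.30). These 3 had 0.60, 0.57 and 0.63 with SCD without that covariate.

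In the ADIPOQ fit with SCD as a covariate, 2.29% of probe sets were called positive, and 6 of 11 member probe sets. The split was 549 positive and 167 negative as scaled, and 4032 and 21 with values as deposited. FABP4 kept a partial r of 0.81, DGAT2 0.72, PPARG 0.61, and the LPL probe sets 0.61 and 0.58. FASN Ssc.18175.1.A1_at had 0.36 (adjusted p = 0.046), and the other FASN probe sets 0.09 to 0.21. DGAT2 was the single member gene with a partial r over 0.6 in both models. ELOVL6 kept partial r of 0.82, 0.75, 0.75 and 0.60 with SCD beside ADIPOQ. DBP, a clock-controlled transcription factor, came next (0.59), and CPT1A, which takes fatty acids into mitochondria (-0.57), DAZAP2 (-0.56), ETFDH (-0.48), ARNTL, a core clock gene (-0.48), and FKBP5, a glucocorticoid target (-0.48), were lowest. In DRIP 1-33 alone, with fewer animals, 0 probe sets were called negative with SCD beside ADIPOQ. None of these lowest genes was thus called in that block.

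The other genes of fat storage were read from 5 lists, with 1 probe set per gene. Genes of these lists given below as not called were in part named after their values were seen. Of 10 fatty acid synthesis genes with a probe set, 3 were called positive with ADIPOQ: ELOVL6 (partial r = 0.68), PC, pyruvate carboxylase (0.66), and SLC25A1, the mitochondrial citrate carrier (0.51). With SCD, 5 were called positive: ELOVL6 (0.90), SLC25A1 (0.68), ME1, the malic enzyme that makes NADPH (0.56), INSIG1, a sterol sensor (0.51), and PC (0.51). The median partial r of the 10 was 0.205 with ADIPOQ and 0.440 with SCD, against 0.0182 and 0.00655 over all probe sets in those fits. ACACA, acetyl-CoA carboxylase, had 0.05 with ADIPOQ and was not called, on a dim probe set (mean level 5.80).

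Of 11 lipid droplet and lipolysis genes, 3 were called positive with both predictors. They were LIPE, hormone-sensitive lipase (0.77 with ADIPOQ and 0.46 with SCD), CIDEA, a droplet protein (0.66 and 0.53 with those), and PNPLA3 (0.51 and 0.52). The rest of the list was not called. With ADIPOQ, PLIN2, PLIN3 and PNPLA2 had 0.07, 0.13 and 0.12, ABHD5 had 0.25, MGLL 0.001 and BSCL2 -0.08. Of 10 further genes of triglyceride synthesis, PCK1, which supplies glycerol in fat cells, was called with ADIPOQ (0.56) and none with SCD. The acyltransferase GPAM had -0.03 and DGAT1, the other diacylglycerol acyltransferase, 0.30 with ADIPOQ, neither called. DGAT2 thus stood apart in value from DGAT1, a difference that was not tested.

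Of 13 adipokine and receptor genes, 5 were called positive with ADIPOQ: APOE (0.54), RBP4, the retinol carrier (0.43), ADIPOR2, an adiponectin receptor (0.39), CAV1 (0.37) and CFD, adipsin (0.35). RETN, resistin, had -0.05 and LEPR, the leptin receptor, 0.02, the latter on a dim probe set (mean level 3.99). Of 10 transcription factors besides PPARG, none was called positive and PPARGC1A, the coactivator of mitochondrial genes, was called negative (-0.42). CEBPA, the partner of PPARG in adipocyte differentiation, had -0.03 on a dim probe set (mean level 5.77). For such dim probe sets the lack of a call says little about the gene. PPARG was the one of these 11 transcription factor genes that was called positive.

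Some genes by which muscle fibres burn fatty acids had the opposite sign. Of 14, 5 were called negative with ADIPOQ: ACADVL (-0.43), CPT1B, the carnitine transferase of muscle (-0.36), PDK4 (-0.35), HADHB (-0.34) and UCP3 (-0.34). LIPA, lysosomal lipase, was called positive (0.43). With SCD, 5 were called negative, UCP3 (-0.53), CPT1B (-0.52), ACADVL (-0.52), HADHA (-0.48) and PDK4 (-0.41), and none positive. The median of the 14 was -0.253 with ADIPOQ and -0.290 with SCD. Over all probe sets, 1.75% were called negative with ADIPOQ and 0.646% with SCD. Such negative calls depended on the scaling. With values as deposited they fell from 420 to 44 with ADIPOQ and from 155 to 50 with SCD. The calls of this list were not read at that setting. These lists were chosen with earlier results known, and their counts describe these animals only.

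Among markers of other cells in muscle, most of the fibroblast and matrix genes moved with ADIPOQ, and fewer of the other lists did. The median partial r with ADIPOQ was 0.133 over the endothelium genes, 0.0352 over smooth muscle and 0.158 over nerve and Schwann cell. Over all probe sets, 3.93% were called positive with ADIPOQ. Of 13 fibroblast and matrix genes, 8 were called positive (median partial r = 0.401, none under 0.237), with SPARC (0.57), COL5A1 (0.48) and DCN (0.45) highest. In the SCD fit, 2 of the 13 were called positive, and for the SCD slope with ADIPOQ as a covariate 0 of the 13 by limma. The ADIPOQ slope with SCD as a covariate was not read for this list. The summed level of the list ran between 33230 and 95340 scaled units in DRIP 1-33 and between 45970 and 85840 in DRIP 60-114. Of 10 endothelium genes 2 were called positive (PECAM1, 0.42, and TIE1, 0.34), with sums of 5037 to 8876 in DRIP 1-33 and 3280 to 8474 in DRIP 60-114. Of 7 smooth muscle genes, 2 were called positive (TAGLN, 0.39, and MCAM, 0.37) and DES, desmin, which striated fibres share, negative (-0.43), with sums of 33750 to 75260 in DRIP 1-33 and 24420 to 51340 in DRIP 60-114. Of 5 nerve and Schwann cell genes 1 was called, S100B (0.50), which adipocytes also express, with sums of 629 to 1246 in DRIP 1-33 and 725 to 1816 in DRIP 60-114.

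None of 10 leukocyte genes and none of 3 erythroid genes was called with ADIPOQ (medians 0.0722 and 0.149). Leukocyte sums ran between 1155 and 4698 in DRIP 1-33 and between 1262 and 5010 in DRIP 60-114, and erythroid sums between 529 and 1683 in DRIP 1-33 and between 291 and 13530 in DRIP 60-114. Of 7 fast fibre genes none was called, with a median of -0.174, and of 8 slow fibre genes only TPM3 (0.36), with a median of -0.127. The part of these other cells in the co-variation of the members was not tested.

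**Figure D5:**
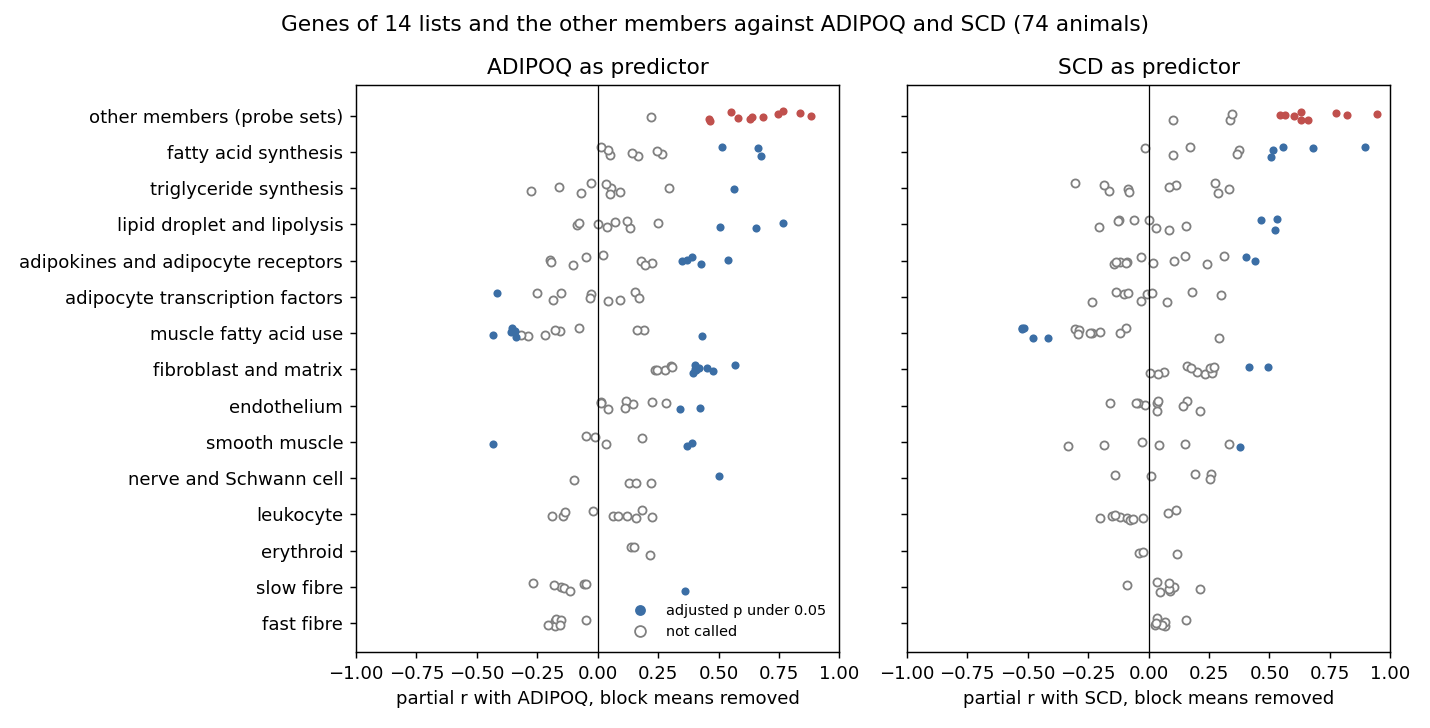
Partial r of single probe sets with ADIPOQ (left) and SCD (right), block means removed, 74 animals, for the other member probe sets (red where called) and for 1 probe set per gene of 14 lists (blue where called). Open circles were not called (limma adjusted p of 0.05 or more). The members lie at 0.22 to 0.88 with ADIPOQ, most fibroblast and matrix genes lie above 0.25 with ADIPOQ, and most genes of muscle fatty acid use lie below 0 in both panels.

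Between the blocks, 4 of the 13 member probe sets that are not controls were lower in DRIP 1-33 by limma and none higher. Of all probe sets, 30.7% were lower and 14% higher, so the members' count of lower calls lay near that share. With values as deposited the calls over the array were 289 higher and 17936 lower, and after quantile normalization 4965 higher and 4810 lower, against 3366 and 7375 as scaled. FABP4 averaged 11.80 ± 1.05 in DRIP 1-33 and 12.35 ± 0.87 in DRIP 60-114 (SD, 24 and 50 animals), a difference of -0.55 ± 0.22 (SE, limma adjusted p = 0.037). LEP Ssc.265.1.S2_at differed by -0.77 ± 0.25 (adjusted p = 0.0081), LPL Ssc.16335.1.S1_at by -0.51 ± 0.12 (adjusted p = 0.00034) and FASN Ssc.16368.1.S1_at by -0.81 ± 0.27 (adjusted p = 0.011). After quantile normalization LEP Ssc.265.1.S2_at (-0.46, adjusted p = 0.14) and FASN Ssc.16368.1.S1_at (-0.43, adjusted p = 0.19) were no longer called. The other probe sets of the same genes were not called as scaled. LPL Ssc.16335.1.S2_at differed by -0.01 ± 0.15, LEP Ssc.265.1.S3_at by -0.38 ± 0.40, and the other FASN probe sets by 0.19 ± 0.35, -0.16 ± 0.23 and -0.39 ± 0.24. The difference between probe sets of a gene was not tested.

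ADIPOQ differed by -0.15 ± 0.28 between the blocks (adjusted p = 0.71), SCD by 0.13 ± 0.41, DGAT2 by 0.04 ± 0.29 and PPARG by 0.11 ± 0.34. With values as deposited ADIPOQ was called lower in DRIP 1-33 (-0.73, limma adjusted p = 0.023), as was LPL Ssc.16335.1.S2_at (-0.59, adjusted p = 0.00064), and the signs turned negative for SCD (-0.45), DGAT2 (-0.54), PPARG (-0.48) and FASN Ssc.18175.1.A1_at (-0.40). The median difference of all probe sets was itself -0.154 as scaled, -0.708 as deposited and 0.0405 after quantile normalization, and the array level before scaling moved with the block, as given above. With the array level and the 3′ over 5′ ratio of control transcripts as covariates, the difference of FABP4 was -0.07 ± 0.34 that of LPL Ssc.16335.1.S1_at -0.18 ± 0.19 and that of LEP Ssc.265.1.S2_at -0.45 ± 0.39, none called, while PPARG was higher in DRIP 1-33 by 1.28 ± 0.51 (limma adjusted p = 0.036).

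Within DRIP 1-33 no relation of the 8 genes to the array level before scaling or to the 3′ over 5′ ratio passed the threshold (r between -0.315 and 0.305, 16 permutation tests, none with an unadjusted p under 0.05, although the rho of FASN with array level was -0.410 at p = 0.047). Without the 2 farthest arrays the r with array level there was -0.443 for PPARG, -0.414 for FABP4 and -0.418 for DGAT2, against -0.0415, -0.0898 and -0.202 with them. Within DRIP 60-114, PPARG was higher on brighter arrays (r = 0.489, rho = 0.434, permutation p = 0.00029, adjusted p = 0.0093 over 32 tests, and 0.433 without the 2 farthest arrays). ADIPOQ and FABP4 had r of 0.345 and 0.373 with array level there, which did not pass (permutation test, adjusted p = 0.15 and 0.12). With both measures as covariates, the ADIPOQ fit called the same 11 member probe sets, with a partial r of 0.77 for PPARG.

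The slope on ADIPOQ was also compared between the blocks, as an interaction term in limma. Over all probe sets, 0.129% had a higher slope in DRIP 1-33 and 0.0375% a lower one (31 and 9 probe sets, against 0 and 0 with values as deposited and 21 and 16 after quantile normalization). Of the 12 member probe sets tested, none was called. The slope of DGAT2 was steeper by 0.37 ± 0.13 log2 units per doubling in DRIP 1-33 (adjusted p = 0.20), that of LPL Ssc.16335.1.S2_at by 0.18 ± 0.081 (adjusted p = 0.32) and that of FASN Ssc.16368.1.S1_at by 0.69 ± 0.21 (adjusted p = 0.15). For FABP4 the difference was 0.09 ± 0.090 and for SCD 0.08 ± 0.27. These tests cover slopes on ADIPOQ only, not the pairs without it. The higher r in DRIP 1-33 seen for many pairs was itself not tested between the blocks.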

How the data were processed

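Muscle RNA of 74 pigs was hybridised to 74 Porcine Genome Arrays. By the study's methods the authors ran GCOS 1.1.1 with global scaling to a target of 500, took present calls by MAS5, and used PLIER. The sources used here do not say which algorithm gave the deposited linear intensity values. Their trimmed means differed between arrays, so all were brought to a common trimmed mean of 500 (2% off each end), floored at 1 and taken to log2. Of 24123 probe sets, 124 array controls were left out of the fits. GEO's platform annotation gave 10069 of the others 1 symbol, 198 several and 13732 none. Through RefSeq, 9989 were matched by Entrez identifier. Where a gene had several probe sets, the one of highest mean that is not a control was used as predictor.

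Fits used limma 3.58.1 in R 4.3.3 (lmFit, eBayes with trend) with the block as a covariate, two-sided, with Benjamini-Hochberg adjustment over all probe sets tested. Correlations within blocks used 100000 permutations. The script was tested on simulated data, and figures were drawn with matplotlib 3.10.9. Genes were named by rule: all members, the 10 highest and 5 lowest partial r with ADIPOQ, the 3 highest of each other fit, and in each list the called genes and up to 3 of largest partial r. Members and lists were chosen with earlier results of these data known. The fits with SCD or ADIPOQ as a covariate, and further genes of the SCD fits, were chosen after values were seen. Alternatives were the deposited values, quantile normalization, 16 added before log2, the probe sets of highest median, as many as the study kept, leaving out 2 animals, each block alone, no block and array measures as covariates. The number of arrays limits the precision. The study adjusted for family, sex, carcass weight and slaughter date. The labels do not give these per animal, and they were not adjusted for here. For weight, the labels give only a mean end weight that all animals share.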

Additional observations from a re-analysis of the deposited data

Results flagged for a closer look

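The slope on ADIPOQ differed between the blocks, by the interaction term in limma, for 31 probe sets with a higher slope in DRIP 1-33 and for 9 with a lower one, of 23998 tested. No member probe set was among them, and the smallest adjusted p of a member was 0.149, for FASN Ssc.16368.1.S1_at. Without the 2 animals farthest from the ADIPOQ median, 2 higher and 1 lower were left, and with values as deposited 0 and 0.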

How the results depend on the processing

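The counts over the array depended on the setting more than the member calls did. With values as deposited, the ADIPOQ fit called 3929 positive and 44 negative, the SCD fit 50 negative, the SCD fit with ADIPOQ as a covariate 26 positive, the block comparison 289 positive and 17936 negative, and the slope difference 0 in each direction. Quantile normalization gave 4810 negative for the block and 16 negative for the slope difference, and adding 16 before log2 gave 5 negative for the slope difference. Over the probe sets of highest median, as many as the study kept, 234 were negative in the SCD fit and 4138 for the block, with fewer tested. Without the 2 animals farthest from the predictor's median, the ADIPOQ fit called 567 positive and 160 negative, the SCD fit with ADIPOQ 50 positive and 18 negative, and the slope difference 2 positive and 1 negative. In DRIP 1-33 alone, with fewer animals, the ADIPOQ fit called 263 positive and 60 negative, the SCD fit 55 and 2, and the SCD fit with ADIPOQ 6 and 0. In DRIP 60-114 alone the ADIPOQ fit called 496 positive, the SCD fit 114 positive and 41 negative, and the SCD fit with ADIPOQ 40 positive and 11 negative. Without the block, 241 were negative in the ADIPOQ fit and 86 in the SCD fit. With the array measures as covariates, 249 were negative in the SCD fit and 21 in that with ADIPOQ. The cause was not tested.

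Of the values named from the ADIPOQ fit, 208 of 222 kept their direction and side of the threshold, 14 lost the call and 0 turned. The LEP fit was less stable, with 73 of 98 kept, 22 lost and 3 gained, and of 266 values of member pairs 221 kept, 36 lost and 2 gained the call and 7 turned. With another probe set of the gene, 54 values of pairs were kept, 36 lost and 1 gained the call and 7 turned, so all 36 losses arose there. LPL Ssc.16335.1.S1_at passed the threshold with 4 of 7 genes in DRIP 1-33 and 7 of 7 in DRIP 60-114. FASN Ssc.25076.2.S1_at passed it with 7 of 7 in DRIP 1-33 and 3 of 7 in DRIP 60-114. Pairs turned sign only with another probe set of the gene. For LEP these were the control probe sets, with PPARG in DRIP 60-114 (r = -0.00728), with ADIPOQ in DRIP 1-33 (-0.0527) and with DGAT2 in DRIP 1-33 (-0.00805). For FASN it was Ssc.16368.1.S1_at in DRIP 60-114, with ADIPOQ (-0.0257), FABP4 (-0.0762), SCD (-0.0646) and PPARG (-0.12). Signal over background could not be read from the table, and the dim LEP and FASN probe sets are the least certain.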
